A study of Mus musculus with 12 samples.

Results

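Accessible chromatin was described at the loci of Cebpb and Cebpd, the genes of the inducible transcription factors C/EBPβ and C/EBPδ. The members were the accessible regions (peaks) whose start lay in a 240-kb window on mm9 chromosome 2 (167400000 to 167640000), which holds Cebpb and the region downstream of it, or in a 100-kb window on chromosome 16 (15840000 to 15940000), which holds Cebpd. These windows held 35 of the 60072 peaks listed in the study's table, 31 at Cebpb and 4 at Cebpd. The windows were set by position alone. The rows in them were selected on the reads of these same libraries, since a region is listed only where the peak caller found one, and both loci were proposed with earlier results of these data known. Counts per locus are therefore given as descriptions. Each peak is named by its gene and the distance in kb from an approximate gene position (167514000 for Cebpb and 15887000 for Cebpd, not annotated start sites) to the centre of the peak, with positive values toward higher coordinates.

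C/EBPβ and C/EBPδ are leucine zipper proteins that bind DNA as dimers and share their recognition sequence with the other members of the C/EBP family. Both genes lack introns and are switched on by cytokines and inflammatory signals. In myeloid cells C/EBPβ is known for its part in macrophage gene expression and in the granulocyte production that follows infection or cytokine treatment, and C/EBPδ for its induction during granulocyte maturation and in activated macrophages.

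The assay was ATAC-seq, where the enzyme Tn5 tags accessible DNA for sequencing. It was run on c-Kit-positive bone marrow progenitors of C57BL/6-background mice immortalized with a retroviral fusion of HoxB8 and the estrogen receptor. All cultures, wild-type included, carried this fusion and grew in interleukin 3, and estradiol kept the fusion active until it was withdrawn. Wild-type cells (no added HMGN1) and HMGN1-OE cells (from mice with a transgene for human HMGN1, a nucleosome-binding protein) were sampled at 0 h and at 96 h after withdrawal. Each of the 4 groups had 3 libraries, for a total of 12. The labels call the replicates independent, but the number of immortalized lines for each genotype and the promoter of the transgene were not stated in the sources read here, so that genotype and line cannot be told apart. The labels name the cells only as myeloid, and this was not checked against marker genes, because the peaks were used without an mm9 annotation.

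The Cebpb promoter is shown first because the peak that spans the approximate gene position rose with time in both genotypes after scaling. RefSeq gave a promoter for 1 of the 2 genes looked up. The sequence is the 250 bases before the annotated start of Cebpb on the plus strand of GRCm38.p6 (chr2:167688665-167688914), a later build than that of the peaks, so that it was not placed on them. Capitals mark TGACG, the core of the cyclic AMP response element, on either strand.

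Cebpb promoter: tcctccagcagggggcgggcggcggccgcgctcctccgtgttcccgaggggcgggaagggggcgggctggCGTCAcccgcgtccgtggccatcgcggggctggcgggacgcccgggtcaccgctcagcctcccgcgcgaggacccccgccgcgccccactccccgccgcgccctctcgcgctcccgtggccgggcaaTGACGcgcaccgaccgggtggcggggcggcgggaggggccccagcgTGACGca

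This stretch was 81.6% G and C, against a median of 52.4% over 32851 promoters of the same length. TGACG was found 3 times, on the minus strand at -180 to -176 and on the plus strand at -53 to -49 and at -7 to -3, counted back from the start. It was present in 17.8% of all promoters. GGGCGG, the GC box, was found 5 times on the plus strand, with an overlap between 2 of the matches, and 32.7% of promoters held it. On neither strand did this window hold TTGCNNCAA (the C/EBP palindrome, in 1.74% of promoters), TGACGTCA (1.55%), TTCNNNGAA or TTCNNGGAA (STAT, 7.02% and 4.06%), TGANTCA (AP-1, 6.75%), CCAAT (33.9%), TATAAA (12.4%), GAGGAA (ETS, 23.3%), TGTGGT (RUNX, 14.0%) or GGANTTTCC (NF-kB, 1.07%).

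Libraries held 21581528 to 35560463 reads, of which 24.7% to 50.02% fell in listed peaks. The highest share, 50.02%, was that of wild-type replicate 1 at 96 h (39.7% and 35.1% in the rest of that group), and the HMGN1-OE libraries at 96 h had the lowest shares (24.7% to 29.5%). Values below are scaled RPKM, that is, reads per kb of peak relative to the size of the library, after scaling so that most peaks keep their level between libraries. Fold changes are on the log2(scaled RPKM + 1) scale, which understates changes of weak peaks, and a change was counted as a call where limma gave an adjusted p under 0.05 over all 57576 peaks tested, which included all 35 members. Without that scaling the median log2 fold change of all tested peaks was 0.21 for HMGN1-OE over wild-type at 0 h, -0.48 at 96 h, 0.21 with time in wild-type, -0.53 with time in HMGN1-OE and -0.69 for the interaction. With it these medians lay between -0.03 and 0.02, so the changes reported are relative to the bulk of peaks. The study reported accessibility to be raised globally in HMGN1-OE progenitors. A shift of most peaks together would be removed by this scaling.

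The Cebpb window was densely filled. A 240-kb window around the median listed peak held 14 peaks (90th percentile, 24), against 31 here, while the 4 peaks in the 100-kb Cebpd window compared with a median of 6. Members were also strong, with a median level of 11.1 scaled RPKM at Cebpb and 9.47 at Cebpd over all libraries, against 3.71 for all listed peaks. The shares of calls over all tested peaks, given below, were not matched for level. Together the members covered 17275 bp at Cebpb and 3758 bp at Cebpd. In the gene order of GRCm38, used here for names only, Cebpb follows Tmem189 and a long non-coding RNA gene, and the genes listed between it and Ptpn1, the next protein-coding gene, are all annotated as long non-coding RNA. The nearest protein-coding genes to Cebpd are Mzt2 on the side of lower coordinates and Spidr on the other. Which of these genes a given peak lies in was not determined.

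**Figure D1:**
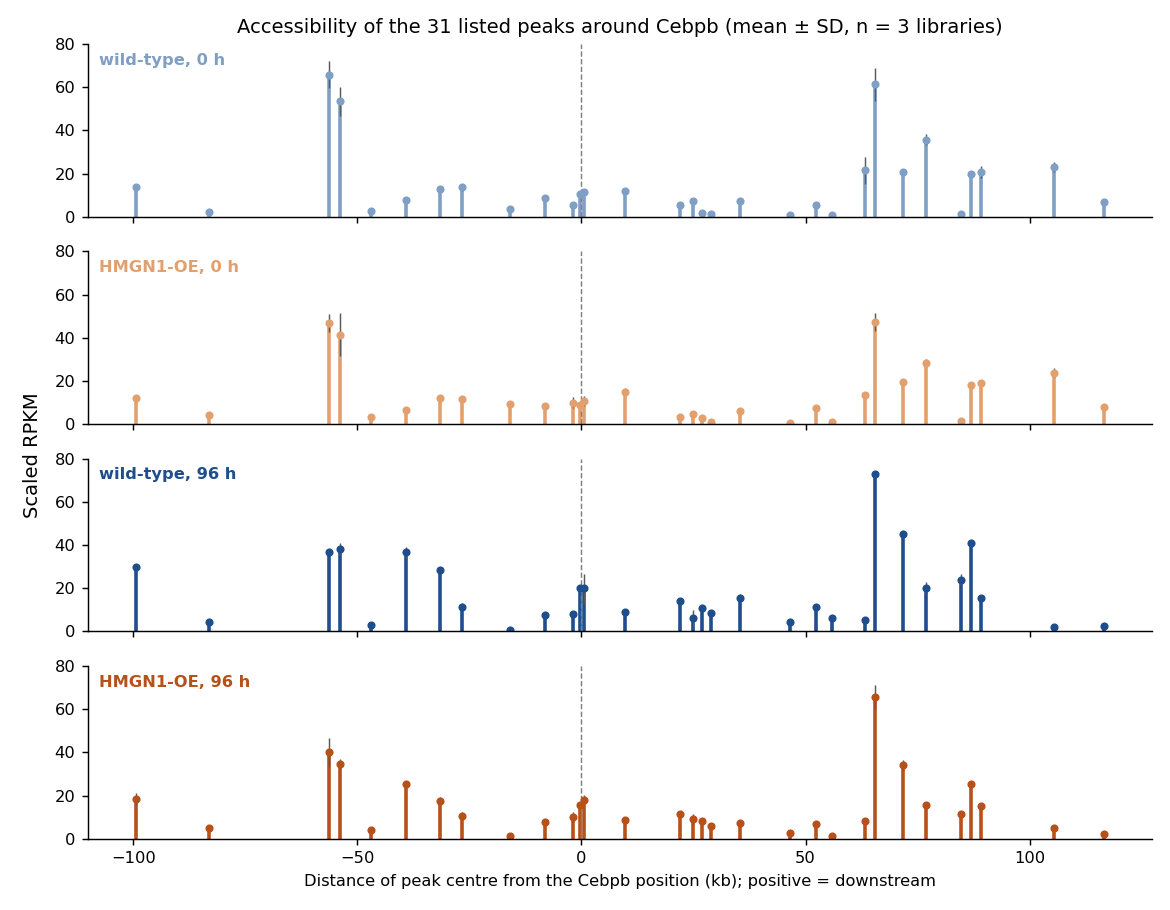
Mean scaled RPKM (vertical axis; whiskers, SD over 3 libraries) of the 31 peaks of the Cebpb locus against the distance of the peak centre from the Cebpb position in kb, with a panel for each group and a dashed line at the gene position. The peak at +65.6 kb was the strongest on average, and the peaks at -39.2 kb and +84.6 kb were higher at 96 h than at 0 h in both genotypes.

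The first question was how the loci changed while wild-type cells matured. At the Cebpb locus 18 of 31 peaks rose between 0 h and 96 h, 9 fell and 4 did not pass the test, against 33.2% higher and 30.7% lower among all peaks tested. The median log2 fold change of the 31 was 0.68, with a range from -2.97 to 3.55, against -0.00 for all tested peaks. Of the 10 peaks more than 2 kb upstream of the gene position 4 rose and 3 fell, and of the 18 more than 2 kb downstream 11 rose and 6 fell. At Cebpd 3 of 4 peaks rose and 1 fell. In these bulk libraries a change in the share of cells with an open region and a change in its accessibility per cell cannot be told apart. On values as deposited the split was 18 higher and 6 lower at Cebpb and 3 higher and 0 lower at Cebpd. Among all 57576 tested peaks it was then 21363 higher and 10229 lower.

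All 3 peaks within 2 kb of the Cebpb position rose in wild-type cells. The peak at -0.3 kb (chromosome 2, 167513067 to 167514237), which spans the gene position, stood at 10.6, 11.02 and 10.4 scaled RPKM in the wild-type libraries at 0 h and at 19.5, 20.7 and 19.7 at 96 h. The groups did not overlap (log2 fold change 0.84, SE 0.09, adjusted p = 1.18e-07). The peak at +0.6 kb (chromosome 2, 167514409 to 167514789) stood at 9.99, 12.2 and 11.7 and then at 27.3, 14.9 and 17.6. All 3 libraries at 96 h were above those at 0 h, with replicate 1, the library with the highest share of reads in peaks, well above the others (log2 fold change 0.73, SE 0.17, adjusted p = 8.18e-04). The weaker peak at -1.9 kb rose from 5.37 ± 0.323 to 7.99 ± 1.45 (SD, n = 3, log2 fold change 0.49), but this call was lost without wild-type replicate 3 at 0 h or at 96 h (adjusted p 0.0502 to 0.0983) and in voom.

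**Figure D2:**
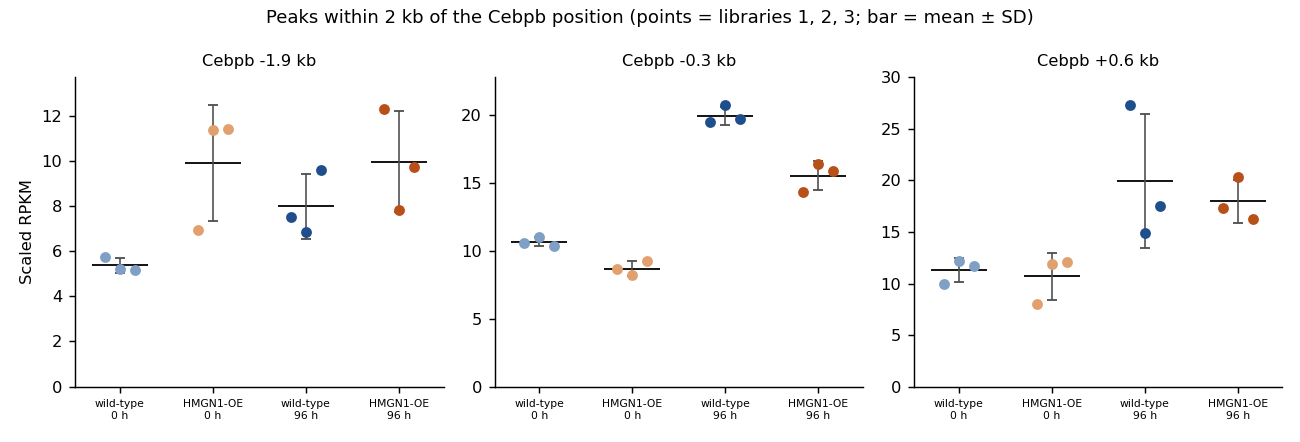
Scaled RPKM (vertical axes, from 0) of the 3 peaks within 2 kb of the Cebpb position in each of the 12 libraries, by group, with the mean and SD over 3 libraries. At -0.3 kb the wild-type libraries at 96 h (19.5 to 20.7) lay above all others, and at +0.6 kb the 2 genotypes overlapped at both times.

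Several distal peaks changed more than those within 2 kb of the gene position. The largest rise was at +84.6 kb (chromosome 2, 167598528 to 167598689, 162 bp), a region that held 1, 10 and 9 reads in the wild-type libraries at 0 h and 168, 104 and 70 at 96 h. In scaled RPKM this was 0.210, 2.18 and 1.51 against 25.7, 25.3 and 20.9, a ratio of group means of 18.5 with no overlap (log2 fold change 3.55, SE 0.27, adjusted p = 1.30e-09). With so few reads at 0 h the ratio is imprecise. The peak at -39.2 kb (chromosome 2, 167474527 to 167475148) was well covered at both times and rose from 7.65, 8.79 and 7.20 to 37.7, 33.8 and 38.3 (log2 fold change 2.08, SE 0.09, adjusted p = 5.33e-13). Those at +26.8 kb and +28.8 kb rose from 1.92 ± 0.904 to 10.7 ± 1.004 and from 1.51 ± 0.275 to 8.51 ± 0.441 (SD, n = 3). At both peaks every library at 96 h was above every library at 0 h. The same held at +46.6 kb, which went from 1.03 ± 0.536 to 4.42 ± 1.19 (SD, n = 3).

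Strong peaks that were open from the start rose by smaller factors. At +86.9 kb the wild-type libraries went from 21.1, 18.5 and 19.8 to 41.7, 41.0 and 40.5 and at +71.7 kb from 22.3, 20.3 and 19.5 to 45.6, 46.1 and 44.1 (log2 fold changes 1.02 and 1.09). The groups did not overlap at either peak. The strongest member, at +65.6 kb (chromosome 2, 167579270 to 167579985), stood at 66.8, 64.6 and 52.4 and then at 73.5, 72.7 and 71.9. Its rise was small (log2 fold change 0.25, SE 0.09) and was not called without wild-type replicate 3 at 0 h (adjusted p = 0.105). A call at -83.1 kb likewise depended on single libraries, and was lost without wild-type replicate 1 or 3 at 0 h or replicate 1 at 96 h (adjusted p 0.0584 to 0.123).

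Rising and falling peaks were interspersed. The largest fall was at +105.5 kb (chromosome 2, 167619257 to 167619707), from 25.2, 23.2 and 20.8 scaled RPKM to 2.20, 1.84 and 2.15 (log2 fold change -2.97, SE 0.12, adjusted p = 2.10e-13). The peak at +63.3 kb, next to the strongest member, fell from 24.0, 25.8 and 14.6 to 4.03, 5.45 and 6.50 (log2 fold change -1.81, SE 0.17, adjusted p = 2.76e-08) while its neighbour rose. At -16.0 kb (chromosome 2, 167497781 to 167498156) the level went from 2.98, 4.41 and 3.82 to 0.593, 0.210 and 0.773, the latter from 9, 2 and 6 reads (log2 fold change -1.64, SE 0.20, adjusted p = 6.60e-07). The very open pair at -56.4 kb and -53.9 kb fell from 65.8 ± 6.35 to 36.7 ± 1.43 and from 53.4 ± 6.79 to 38.1 ± 2.93 (SD, n = 3) but stayed among the strongest members. The remaining 4 falls, at +9.6, +76.8, +89.2 and +116.6 kb, had log2 fold changes between -1.13 and -0.38. Those at -53.9, +9.6 and +89.2 kb were not called as deposited. The 4 peaks not called were +24.9 kb, described below, and those at -47.0, -26.6 and -8.1 kb, whose log2 fold changes were 0.13, -0.22 and -0.21 in wild-type and 0.11, -0.12 and -0.09 in HMGN1-OE cells, and which were called in none of the comparisons after scaling.

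The same comparison in HMGN1-OE cells gave fewer calls at Cebpb. Of 31 peaks 14 rose, 7 fell and 10 did not pass the test, against 32.1% higher and 27.0% lower among all peaks tested, and the median log2 fold change was 0.19. On values as deposited, where the median of all peaks itself was -0.53, the split became 6 higher and 13 lower. Among all 57576 tested peaks it was then 10604 higher and 30029 lower. At Cebpd 3 of 4 peaks rose and 0 fell, and as deposited 1 rose and 1 fell. Scaling to reads in peaks, median-ratio scaling and scaling on library totals each added a fall at Cebpd, for 3 higher and 1 lower. The wild-type and HMGN1-OE comparisons share no libraries. At Cebpb 13 peaks rose in both (25.9% of all tested peaks did). These were 13 of 18 rises in wild-type and 13 of 14 in HMGN1-OE. Over all tested peaks the shared rises were 14902 of 19141 in wild-type and 14902 of 18454 in HMGN1-OE. At Cebpb 7 peaks fell in both (20.0% of all tested peaks), which is 7 of 9 and 7 of 7. Over all tested peaks the shared falls were 11507 of 17684 and 11507 of 15546. No member was called in opposite directions. All 3 rises at Cebpd were shared.

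Near the gene position HMGN1-OE cells gained accessibility too, after scaling. The -0.3 kb peak stood at 8.65, 8.17 and 9.23 scaled RPKM in HMGN1-OE libraries at 0 h and at 14.3, 16.4 and 15.9 at 96 h with no overlap (log2 fold change 0.77, SE 0.09, adjusted p = 4.53e-07). The +0.6 kb peak went from 8.03, 11.9 and 12.1 to 17.4, 20.3 and 16.3 (log2 fold change 0.71, SE 0.17, adjusted p = 0.00111). Neither rise passed the test on values as deposited (log2 fold changes 0.17 and 0.11). The -1.9 kb peak was at 9.89 ± 2.57 and 9.95 ± 2.24 (SD, n = 3), with a log2 fold change of 0.02 that was not called and was negative as deposited (-0.57).

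Among distal peaks the largest rises in HMGN1-OE cells were at +84.6, -39.2 and +28.8 kb. At +84.6 kb the libraries held 13, 3 and 8 reads at 0 h and 45, 43 and 50 at 96 h, or 2.53, 0.647 and 1.499 against 11.1, 10.5 and 12.5 scaled RPKM (log2 fold change 2.34, SE 0.27, adjusted p = 4.18e-07). At -39.2 kb the level went from 6.39, 6.79 and 6.64 to 25.3, 25.4 and 24.9 (log2 fold change 1.78, SE 0.09, adjusted p = 3.68e-12). Both peaks rose in every scaling tried. The rises at -99.3, +65.6 and +86.9 kb, by 0.55, 0.46 and 0.45 on the log2 scale, became -0.07, -0.18 and -0.17 as deposited and so changed sign. The largest falls were at -16.0 kb, from 9.14, 9.38 and 8.88 to 0.955, 1.78 and 1.29, at +105.5 kb, from 22.4, 22.8 and 26.5 to 4.51, 4.99 and 5.92, and at +116.6 kb, from 8.10 ± 1.12 to 2.33 ± 0.784 (SD, n = 3). In each of these the groups did not overlap. A call for a fall at +89.2 kb was lost without HMGN1-OE replicate 1 at 0 h (adjusted p = 0.0523). The peak at +24.9 kb rose only in HMGN1-OE cells by call, from 4.58 ± 1.20 to 9.14 ± 2.37 (SD, n = 3), and that call was lost without replicate 1 at 0 h or replicate 3 at 96 h (adjusted p 0.0516 to 0.0524) and as deposited.

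Whether the change with time differed between genotypes was tested directly as an interaction. At the Cebpb locus the change was lower in HMGN1-OE cells at 8 of 31 peaks and higher at 4, against 6.12% lower and 10.9% higher among all tested peaks, with a median of -0.30 against 0.02. The split was 0 higher and 25 lower as deposited and 3 higher and 11 lower when scaled to reads in peaks. Over all 57576 tested peaks it was 491 higher and 26459 lower as deposited, and 4011 and 5982 when scaled to reads in peaks. Which direction was more common among all peaks thus depended on the scaling. At Cebpd limma called 0 of 4 peaks after scaling, as did voom, with 0 and 1 past an unadjusted p of 0.05, and 2, both lower, as deposited. All 3 peaks within 2 kb of the Cebpb position were among those not called. Their interaction values were -0.47 (SE 0.24) at -1.9 kb, -0.07 (SE 0.13) at -0.3 kb and -0.01 (SE 0.24) at +0.6 kb. The calls lay from -99.3 kb to +105.5 kb.

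**Figure D3:**
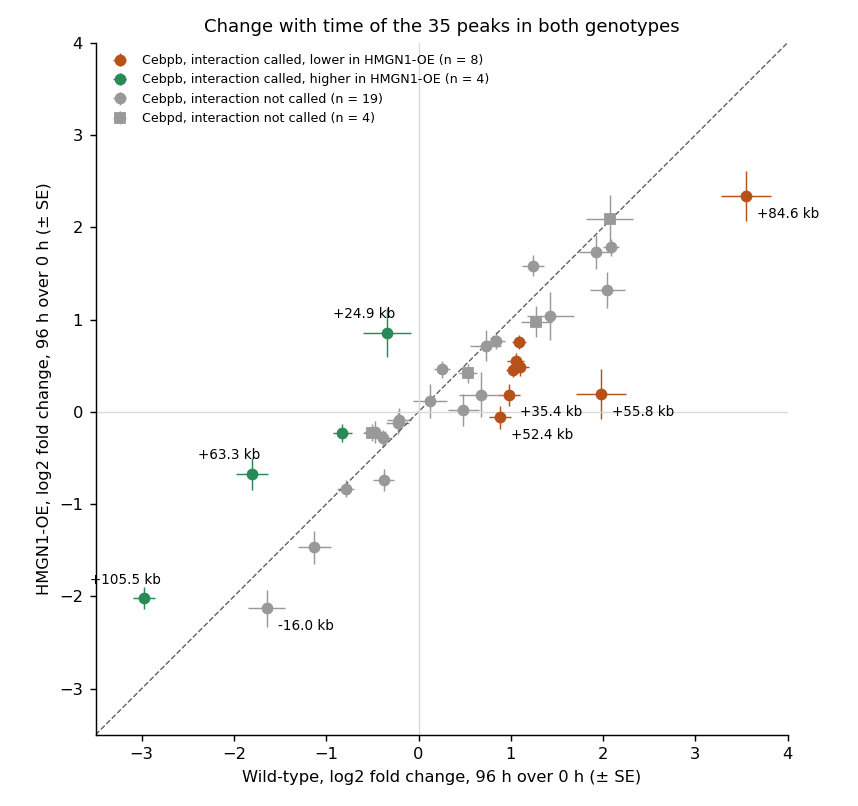
Log2 fold change from 0 h to 96 h of the 35 peaks in wild-type cells (horizontal axis) and in HMGN1-OE cells (vertical axis), with standard errors, circles for Cebpb and squares for Cebpd. The dashed line marks equal change. The 8 peaks with a lower interaction lie below the line and the 4 with a higher interaction above it, while -0.3 kb and +0.6 kb lie close to it. The interaction at -56.4 kb changed sign as deposited.

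The peak with the most negative interaction was at +55.8 kb (chromosome 2, 167569656 to 167569942), where a rise was called in wild-type and not in HMGN1-OE cells. Its level was 0.592, 1.60 and 0.473 scaled RPKM in wild-type at 0 h and 7.16, 6.74 and 4.90 at 96 h, but 0.440, 1.58 and 1.16 and 1.95, 1.38 and 0.705 in HMGN1-OE, from 14, 10 and 5 reads at 96 h. The wild-type libraries at 96 h were above all 9 others, which overlapped. The interaction was -1.79 (SE 0.38, adjusted p = 0.00328). At +35.4 kb (chromosome 2, 167549192 to 167549706) and +52.4 kb (chromosome 2, 167566156 to 167566642), which were accessible from the start, wild-type at 96 h was again the highest group. The first stood at 7.52, 7.12 and 7.27 and then 17.5, 14.8 and 14.2 in wild-type, against 7.11, 5.42 and 6.07 and 6.66, 7.74 and 7.07 in HMGN1-OE (log2 fold change -0.80, SE 0.17, adjusted p = 0.00305 for the interaction). The second stood at 6.14, 5.36 and 5.40 and 12.3, 9.64 and 11.9 against 7.32, 6.95 and 7.48 and 7.45, 6.73 and 6.57 (log2 fold change -0.95, SE 0.17, adjusted p = 0.00103). At all 3 peaks the change in HMGN1-OE cells was not called, with log2 fold changes of 0.19, 0.18 and -0.06.

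At the other 5 peaks with a lower interaction accessibility rose in both genotypes after scaling, and by less in HMGN1-OE. As deposited the HMGN1-OE rise was called at +84.6 kb only. Its log2 fold changes were then -0.07 at -99.3 kb, -0.17 at +86.9 kb and 0.13 at +71.7 kb. At -31.6 kb wild-type cells went from 12.7 to 28.4 and HMGN1-OE cells from 12.3 to 17.6 (interaction -0.62, adjusted p = 0.00323), although the HMGN1-OE change was -0.13 as deposited. At +86.9 kb the libraries reached 41.7, 41.0 and 40.5 in wild-type and 25.5, 26.4 and 24.4 in HMGN1-OE at 96 h (log2 fold change -0.56, SE 0.11, adjusted p = 0.00126). The interactions at -99.3, +71.7 and +84.6 kb were -0.51, -0.33 and -1.21. The call at +71.7 kb was lost on leaving out any of 9 libraries, that is, all but HMGN1-OE replicate 2 at 96 h, wild-type replicate 1 at 0 h and wild-type replicate 3 at 96 h (adjusted p 0.0557 to 0.0899), and in voom. That at +84.6 kb was lost on leaving out HMGN1-OE replicate 1 or 3 at 0 h or 1 or 2 at 96 h, or wild-type replicate 1 at 0 h or 1 or 2 at 96 h (adjusted p 0.0618 to 0.0962), and also with a pseudocount of 0.5 or 0.1 and in voom (adjusted p up to 0.225). In the other direction, the falls at +105.5 kb and +63.3 kb were smaller in HMGN1-OE cells (interactions 0.95 and 1.14, adjusted p = 8.65e-04 and 0.00364), neither of which was called as deposited. The interaction at -56.4 kb was 0.59 and turned to -0.30 as deposited. That at +24.9 kb, 1.20, was lost on leaving out HMGN1-OE replicate 1 at 0 h or 1 or 3 at 96 h, or wild-type replicate 1 or 2 at 0 h or 2 or 3 at 96 h (adjusted p 0.0599 to 0.0812), and also as deposited and when scaled to reads in peaks.

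**Figure D4:**
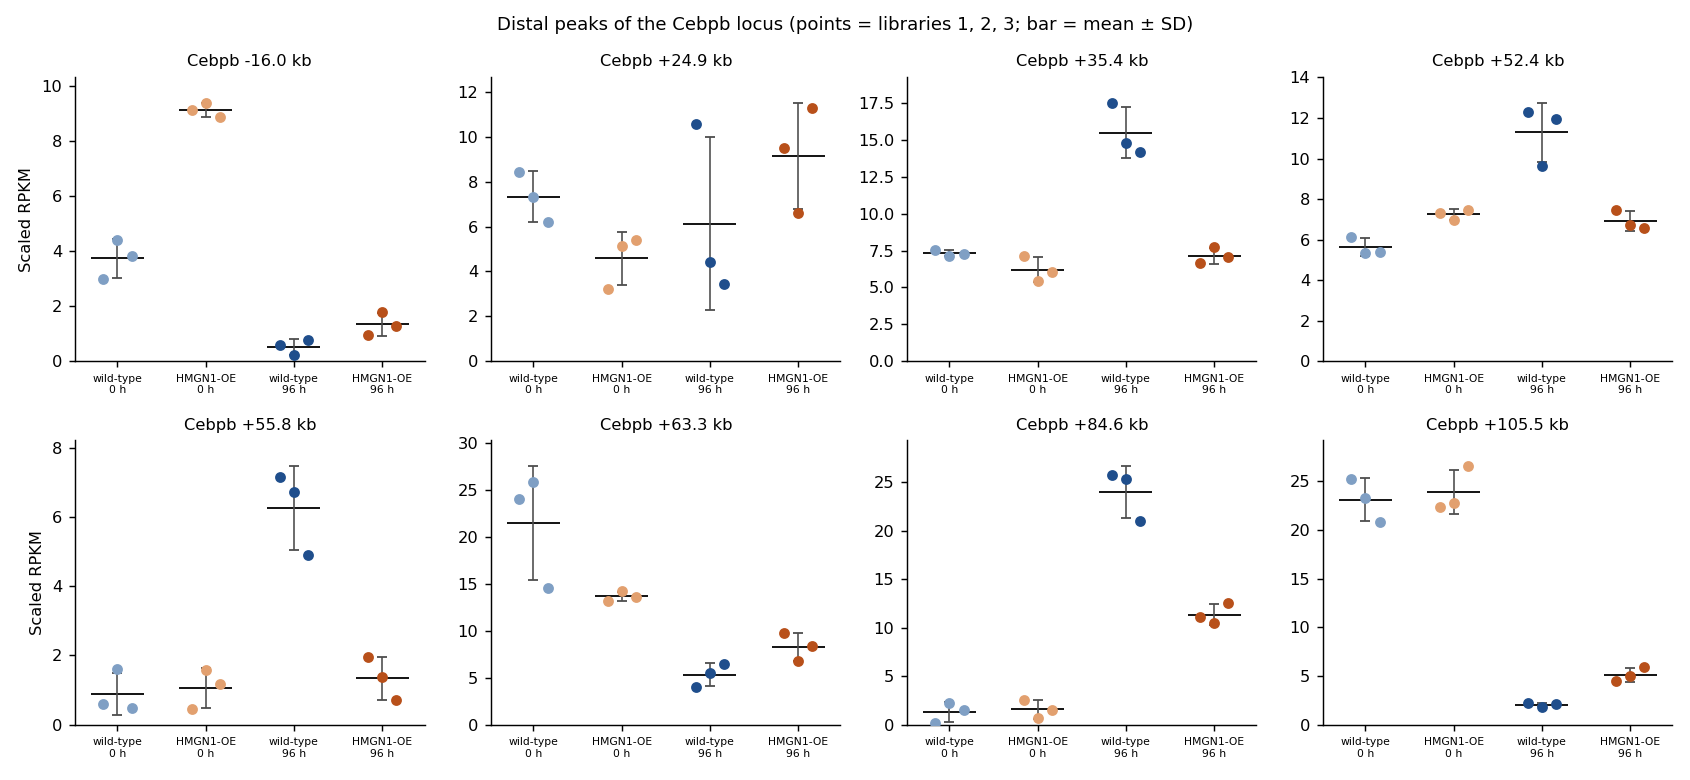
Scaled RPKM (vertical axes, each from 0 and with its own range) of 8 distal peaks of the Cebpb locus, those among the 3 largest called changes in each direction between genotypes at 96 h or in the interaction, in each of the 12 libraries, by group, with the mean and SD over 3 libraries. At +35.4, +52.4 and +55.8 kb the wild-type libraries at 96 h lie above all others, and at -16.0 kb the HMGN1-OE libraries at 0 h do.

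Genotypes were also compared at each time. The comparison at 96 h uses the same wild-type libraries as the wild-type time course, so values are given side by side and not as separate support. At 96 h 11 of 31 Cebpb peaks were lower and 3 higher in HMGN1-OE cells, against 11.2% lower and 10.7% higher among all tested peaks, with a median log2 fold change of -0.17. As deposited the split was 1 higher and 23 lower, against 1161 higher and 27013 lower of all 57576 tested peaks. At -0.3 kb the wild-type mean was 19.9 ± 0.662 and the HMGN1-OE mean 15.5 ± 1.08 (SD, n = 3), with no overlap of the libraries (log2 fold change -0.34, SE 0.09, adjusted p = 0.0101). This call was lost without HMGN1-OE replicate 1 at 96 h (adjusted p = 0.0539). The +0.6 kb and -1.9 kb peaks did not pass (log2 fold changes -0.10 and 0.28, adjusted p = 0.708 and 0.272).

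The largest deficits of HMGN1-OE cells at 96 h were at +55.8, +84.6 and +35.4 kb, where the ratio of group means to wild-type was 0.214, 0.473 and 0.462 (log2 fold changes -1.65, -1.01 and -1.01, adjusted p = 2.25e-04, 0.0115 and 8.32e-06). The call at +84.6 kb was lost with a pseudocount of 0.1 (adjusted p = 0.214). No group overlapped with the other at these peaks. The 3 peaks higher in HMGN1-OE at 96 h were +105.5 kb (log2 fold change 1.0, SE 0.12, adjusted p = 8.92e-06), -16.0 kb and +63.3 kb, all of which fell with time in both genotypes. The call at -16.0 kb was lost without HMGN1-OE replicate 2 or 3 or wild-type replicate 1 or 2 at 96 h (adjusted p 0.0551 to 0.136), and that at +63.3 kb without HMGN1-OE replicate 1 or 3 or wild-type replicate 1 (adjusted p 0.0647 to 0.143). Neither was called as deposited, nor that at -16.0 kb in voom. A deficit called at +76.8 kb was lost without wild-type replicate 1 (adjusted p = 0.0609).

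In undifferentiated cells at 0 h the differences were mixed. HMGN1-OE cells had higher levels at 4 Cebpb peaks and lower levels at 7, against 8.71% and 14.3% of all tested peaks, and the median log2 fold change was -0.11. As deposited 5 were higher and 0 lower, scaled to reads in peaks 5 and 3, and scaled on library totals 5 and 4. The split of all 57576 tested peaks moved too, to 8159 higher and 1502 lower as deposited. It was 7934 and 4880 scaled to reads in peaks, and 6234 and 6581 scaled on library totals. The peak at -16.0 kb was the most different, with wild-type libraries at 2.98, 4.41 and 3.82 scaled RPKM and HMGN1-OE libraries at 9.14, 9.38 and 8.88 and no overlap (log2 fold change 1.11, SE 0.20, adjusted p = 4.89e-04). The -1.9 kb peak was also higher in HMGN1-OE, at 6.92, 11.3 and 11.4 against 5.74, 5.21 and 5.15 (log2 fold change 0.75, SE 0.17, adjusted p = 0.00353). Both calls held in every scaling and with every library left out.

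Lower levels in HMGN1-OE cells at 0 h were called at +22.0 kb, where HMGN1-OE libraries stood at 3.44, 3.27 and 3.01 against 5.40, 4.93 and 5.86 (log2 fold change -0.59, SE 0.12, adjusted p = 9.48e-04), and at -56.4 kb, with 46.2, 51.4 and 43.1 against 72.3, 65.7 and 59.6 (log2 fold change -0.48, SE 0.10, adjusted p = 0.00136). The groups did not overlap at either peak, but neither was called as deposited. In HMGN1-OE cells the -0.3 kb peak was also lower (log2 fold change -0.27, SE 0.09, adjusted p = 0.0372). This call ended without HMGN1-OE replicate 1 or 2 or wild-type replicate 1 or 2 at 0 h. It also ended without HMGN1-OE replicate 3 at 96 h (adjusted p 0.0612 to 0.153 over these 5 libraries). Under any other scaling tried it was lost, and its value was 0.01 as deposited. The other 6 of the 11 calls, at -83.1, -53.9, +9.6, +63.3, +65.6 and +76.8 kb, were all lost without wild-type replicate 1 at 0 h. The number of calls was 7 without HMGN1-OE replicate 1 or 2, 6 without replicate 3, 4 without wild-type replicate 1 and 7 without replicate 2.

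Cebpd had a simple pattern with few peaks. The peak at +0.5 kb (chromosome 16, 15886743 to 15888264, 1522 bp), which spans the gene position, stood at 15.1, 16.2 and 14.8 scaled RPKM in wild-type at 0 h and 24.3, 22.3 and 21.6 at 96 h (log2 fold change 0.53, SE 0.10, adjusted p = 1.01e-04). In HMGN1-OE it stood at 12.6, 14.0 and 15.8 and 21.3, 19.7 and 16.7 (log2 fold change 0.42, SE 0.10, adjusted p = 0.00128), a rise that turned to -0.20 as deposited. In both genotypes every library at 96 h was above every library at 0 h. Neither the difference at 96 h (log2 fold change -0.24, SE 0.10, adjusted p = 0.0962) nor the interaction (adjusted p = 0.627) was called.

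The peak at +3.1 kb (chromosome 16, 15889742 to 15890515) rose from 4.87, 4.10 and 3.47 to 11.9, 12.5 and 9.96 in wild-type (log2 fold change 1.28, SE 0.17, adjusted p = 1.49e-06). In HMGN1-OE it rose from 3.14, 2.62 and 3.49 to 7.11, 8.93 and 5.39 (log2 fold change 0.98, SE 0.17, adjusted p = 4.33e-05), which was not called as deposited. It was the only Cebpd member that differed by genotype at 96 h, being lower in HMGN1-OE without overlap (log2 fold change -0.63, SE 0.17, adjusted p = 0.010), and this call was lost without HMGN1-OE replicate 3 (adjusted p = 0.0655). As deposited all 4 Cebpd peaks were called lower in HMGN1-OE at 96 h, as were 27013 of all 57576 tested peaks. The peak at +18.3 kb was nearly closed at 0 h, with 12, 6 and 6 reads in wild-type and 5, 5 and 4 in HMGN1-OE libraries, and reached 8.21, 7.44 and 3.17 and 5.81, 3.97 and 4.98 scaled RPKM at 96 h (log2 fold changes 2.07 and 2.09). Its genotypes overlapped at both times. The -23.8 kb peak (chromosome 16, 15862667 to 15863730) went the other way, from 15.7, 17.1 and 13.5 to 10.8, 10.6 and 10.2 in wild-type (log2 fold change -0.51, SE 0.10, adjusted p = 1.30e-04), a fall that was not called as deposited, and its change in HMGN1-OE, -0.22, was not called (adjusted p = 0.0522). At 0 h 0 of the 4 peaks were called between genotypes in limma and 0 in voom, while 1 and 2 passed an unadjusted p of 0.05, and 1 was called without wild-type replicate 3.

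**Figure D5:**
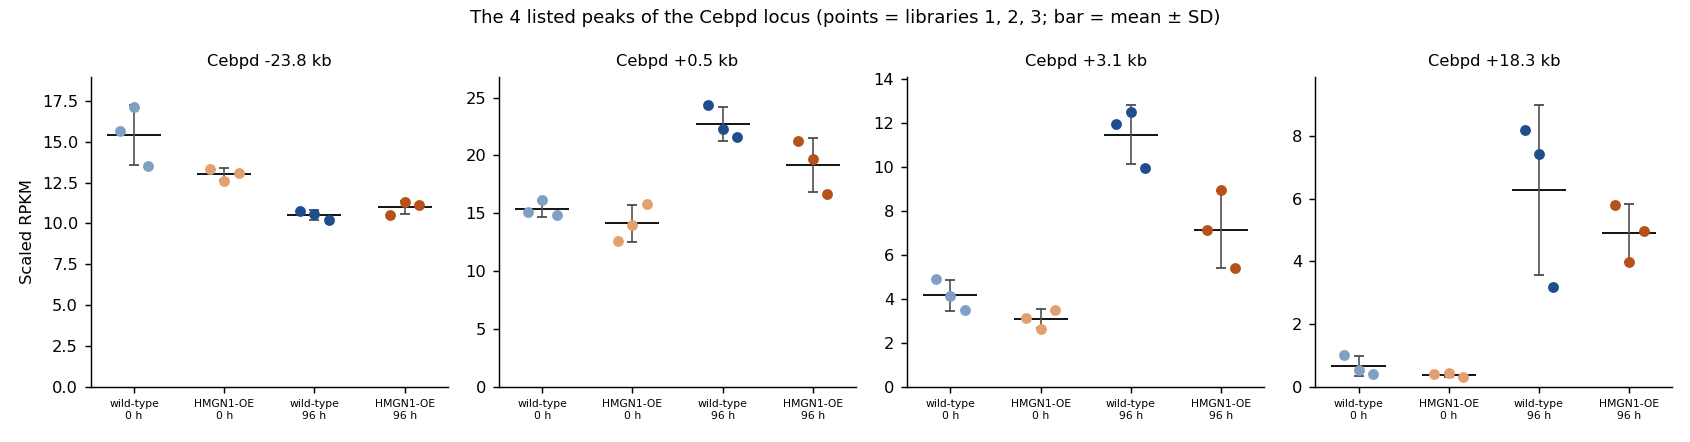
Scaled RPKM (vertical axes, each from 0 and with its own range) of the 4 peaks of the Cebpd locus in each of the 12 libraries, by group, with the mean and SD over 3 libraries. The peaks at +0.5, +3.1 and +18.3 kb were higher at 96 h in both genotypes, although the rise at +0.5 kb in HMGN1-OE cells changed sign as deposited, and -23.8 kb fell in wild-type cells.

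After scaling, the peaks that span the approximate positions of both genes had the same order of levels, which they did not share as deposited. There HMGN1-OE was above wild-type at 0 h at both peaks, and HMGN1-OE at 96 h was lowest at Cebpd. At Cebpb -0.3 kb the order was wild-type at 96 h (19.9 ± 0.662), HMGN1-OE at 96 h (15.5 ± 1.08), wild-type at 0 h (10.7 ± 0.338) and HMGN1-OE at 0 h (8.68 ± 0.531; SD, n = 3), and no neighbours in that order overlapped. At Cebpd +0.5 kb it was 22.7 ± 1.44, 19.2 ± 2.34, 15.4 ± 0.711 and 14.1 ± 1.61 for the same groups, of which the last pair overlapped. Reads of all members of a locus, summed and divided by the width of the peaks, gave, for Cebpb, wild-type means of 16.2 ± 1.15 scaled RPKM at 0 h and 20.3 ± 0.59 at 96 h, and HMGN1-OE means of 13.9 ± 0.19 and 16.2 ± 0.77 (SD, n = 3). After scaling, the HMGN1-OE mean at 96 h equalled the wild-type mean at 0 h to 3 digits. This holds for scaled values only. Values were divided by 0.69 to 0.81 in those HMGN1-OE libraries and by 0.87 to 1.06 in the wild-type ones. As deposited, 13 Cebpb peaks fell with time in HMGN1-OE cells and 6 rose, against 30029 and 10604 of all 57576 tested peaks. For Cebpd the wild-type means were 11.5 ± 0.87 and 15.2 ± 1.12, and the HMGN1-OE means 10.1 ± 0.68 and 12.9 ± 1.17. As descriptions over members chosen with results known, they carry no test.

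The peaks elsewhere whose level followed the Cebpb -0.3 kb peak most closely over the 12 libraries, on the log2 scale, lay on mm9 chromosome 9 at 20929883 to 20930572 (Pearson r = 0.99), chromosome 8 at 124984426 to 124985601 (r = 0.99) and chromosome 2 at 157327053 to 157327444 (r = 0.99), out of 28759 peaks above the median level. Such values were common, since 12.6% of the compared peaks had r above 0.9. Within the loci, r with this peak was 0.98 at +71.7 kb, 0.97 at -39.2 kb, 0.92 at Cebpd +0.5 kb, -0.96 at -16.0 kb and +105.5 kb, and 0.05 at -1.9 kb. The peaks most like Cebpd +0.5 kb lay on chromosome 10 at 92546079 to 92546543, chromosome 17 at 84534627 to 84534943 and chromosome 16 at 3929144 to 3929612 (r = 0.98, 0.97 and 0.97), and 4.89% of the compared peaks had r above 0.9 with it. The 12 points share groups and library composition, and these correlations are descriptions.

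Because the windows are bounded by position, the members at their edges are set beside the nearest listed peaks outside them. The first Cebpb member, at -99.3 kb, had means of 13.9, 12.1, 29.8 and 18.3 scaled RPKM in wild-type 0 h, HMGN1-OE 0 h, wild-type 96 h and HMGN1-OE 96 h libraries, and the nearest listed peak outside, at -118.2 kb, had 1.55, 1.64, 5.53 and 3.26. The last member, at +116.6 kb, had 7.04, 8.10, 2.68 and 2.33, and the peak outside, at +131.0 kb, had 6.54, 9.27, 0.778 and 1.06. At Cebpd the peak beyond -23.8 kb lay far off at -176.9 kb with means of at most 2.26, and the peak beyond +18.3 kb, at +61.5 kb, had 4.54, 0.675, 2.08 and 0.625.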

How the data were processed

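ATAC-seq libraries (Omni-ATAC) were preprocessed by the authors with ChiLin, aligned with BWA and searched for peaks with MACS, per the study's methods. The submitters' processing notes name mm9. The deposited table gives RPKM for 60072 peaks in 12 libraries, relative to library totals. RPKM times peak width gave whole reads for 100% of values (tolerance 0.001).

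RPKM were rescaled by trimmed mean of M-values (TMM), with reads in peaks as library size. This version was chosen over library totals after call counts had been seen, and the latter was kept as an alternative. Peaks needed the equivalent of 10 reads in 3 libraries and 15 reads in all, which left 57576. Log2(scaled RPKM + 1) was fitted in limma 3.58.1 (R 4.3.3, trend and robust) on 4 group means, two-sided, with Benjamini-Hochberg adjustment over all tested peaks. The script was tested on simulated data in which the libraries had like shares of reads in peaks. That test could not show how the scaling handles the differences in these shares between the real libraries. Limma-voom on recovered reads was run as an alternative. Other alternatives were median-ratio scaling, scaling to reads in peaks, values as deposited, pseudocounts of 0.5 and 0.1, no filter or 30 reads, only the groups compared, a replicate block, an adjusted p under 0.01, and leaving out each library.

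Named peaks were those within 2 kb of a gene position, the 5 strongest per locus, the 3 largest called changes in each direction per comparison, and the window edges. The peaks at -47.0, -31.6, -26.6, -8.1, +9.6, +46.6, +76.8 and +89.2 kb fall outside this rule and were named after their values were seen. Members and lists were chosen with earlier results of these data known. No mm9 annotation was used, so peaks were not assigned to genes. Replicates correlated at r of 0.955 to 0.971, and p-values measure the spread between these libraries.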

Additional observations from a re-analysis of the deposited data

Results flagged for a closer look

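These 12 peaks are listed because the genotypes differed in their change from 0 h to 96 h in a test of the difference itself, the interaction in limma (log2 scale, adjusted p in parentheses). At Cebpb +55.8 kb the interaction was -1.79 (0.00328), at +52.4 kb -0.95 (0.00103) and at +35.4 kb -0.80 (0.00305), with a rise called in wild-type cells and not in HMGN1-OE cells. At -31.6 kb it was -0.62 (0.00323), at +86.9 kb -0.56 (0.00126), at -99.3 kb -0.51 (0.0135), at +84.6 kb -1.21 (0.0361) and at +71.7 kb -0.33 (0.0385), with rises in both genotypes after scaling. Of these peaks, only +84.6 kb kept a called rise in HMGN1-OE cells as deposited. At +63.3 kb the interaction was 1.14 (0.00364) and at +105.5 kb 0.95 (8.65e-04), with falls in both. At -56.4 kb it was 0.59 (0.00614), with a fall called in wild-type cells, and at +24.9 kb 1.20 (0.0297), with a rise called in HMGN1-OE cells. The calls at +84.6, +71.7 and +24.9 kb were lost on leaving out any of 7, 9 and 7 libraries. Those at +84.6 and +71.7 kb were also lost in voom. The HMGN1-OE libraries at 96 h had the lowest shares of reads in peaks (24.7% to 29.5%). As deposited the 4 positive interactions were 0.32, 0.18, -0.30 and 0.39 in the same order. The part of library composition in these differences was not tested.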

How the results depend on the processing

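On RPKM as deposited, the calls at Cebpb went from 11 to 5 between genotypes at 0 h, from 14 to 24 at 96 h and from 12 to 25 for the interaction, and at Cebpd from 1 to 4 at 96 h and from 0 to 2 for the interaction. Over all 57576 tested peaks, values as deposited gave 8159 higher and 1502 lower calls at 0 h. They gave 1161 and 27013 at 96 h and 491 and 26459 for the interaction. At an adjusted p under 0.01 the member calls went from 11 to 5 at Cebpb at 0 h and from 1 to 0 at Cebpd at 96 h. Voom on recovered reads called 2 Cebpd peaks at 96 h. Among the peaks that the naming rule picked, directions reversed only as deposited. The change with time in HMGN1-OE cells became -0.0651 at Cebpb -99.3 kb, -0.57 at -1.9 kb, -0.18 at +65.6 kb, -0.17 at +86.9 kb and -0.20 at Cebpd +0.5 kb. The interaction became -0.30 at -56.4 kb, -0.65 at -53.9 kb and -0.70 at +65.6 kb. The difference between genotypes became -0.48 at -56.4 kb and -0.50 at Cebpd -23.8 kb at 96 h and 0.0116 at Cebpb -0.3 kb at 0 h. Of the other peaks, the rise at -31.6 kb in HMGN1-OE cells became -0.13, and uncalled interactions at -26.6, -8.1 and +89.2 kb became called ones of -0.74, -0.70 and -0.77. These shifts follow the medians of all peaks without scaling, and whether those medians are technical was not tested.

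Leaving out 1 library in turn gave 4 to 12 calls at Cebpb between genotypes at 0 h, 12 to 15 at 96 h, 24 to 27 with time in wild-type, 19 to 23 with time in HMGN1-OE and 9 to 12 for the interaction. At Cebpd the ranges were 0 to 1, 0 to 1, 4 to 4, 3 to 4 and 0 to 0. The 2 libraries left in a group were taken to vary like the other groups. The lowest count, 4, came without wild-type replicate 1 at 0 h. Without wild-type replicate 1 at 96 h, the library with the largest share of reads in peaks, Cebpb had 2 higher and 10 lower calls between genotypes at 96 h. Over all alternatives, 24 of 31 member calls with time in wild-type, 13 of 24 in HMGN1-OE, 9 of 15 between genotypes at 96 h, 2 of 11 at 0 h and 5 of 12 for the interaction were kept under each.

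With the replicate number as a block, the calls with time in HMGN1-OE at Cebpb went from 21 to 22, and the other counts of calls were equal. Same-numbered libraries did not deviate together (r from -0.04 to 0.06), so the numbers were not taken as pairs. Peaks with few reads limit the precision, as at Cebpb +84.6 kb with 20 reads over the wild-type libraries at 0 h.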
